A study of Mus musculus with 10 samples.

Results

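The Wnt7 and norrin receptor complex of brain endothelium was described here by 8 genes, Fzd4, Fzd6, Lrp5, Lrp6, Tspan12, Adgra2, Reck and Ctnnb1. They were taken by symbol, before any filter, from the 26264 genes of the deposited expression table. The members, and the pathway lists used below, were chosen with earlier results of these data known. All 8 were found, and all 8 were among the 12751 genes that passed the filter on low values. Endothelial cells were sorted by the surface protein CD31 from the brains of C57BL6 mice, after the meninges, cerebellum and olfactory bulbs had been taken away. The control group (3 males, 2 females) ate control diet, and the PLX5622 group (3 males, 2 females) ate diet with 1200 ppm PLX5622, each for 1 month. PLX5622 inhibits CSF1R, the receptor that microglia need to survive, and the series asks how losing microglia affects brain vessels. Neither group is labelled with a transgene or a further treatment, and ages are not given in the sources used here.

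Wnt7a and Wnt7b are secreted by cells of the neural lineage and reach endothelium, where Reck binds them and the adhesion receptor Adgra2 (also called Gpr124) helps hand them to a Frizzled receptor. Norrin, encoded by Ndp, is not a Wnt, but it binds the Frizzled Fzd4, and the tetraspanin Tspan12 strengthens that signal. Both routes need the co-receptors Lrp5 or Lrp6, and both stop the breakdown of beta-catenin, encoded by Ctnnb1, which then works with TCF and LEF factors in the nucleus. In mice this pathway builds and keeps the blood-brain and blood-retina barriers.

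Every member was transcribed at an abundant level, and none passed the test for a difference between the diets. Levels are TPM (transcript abundance scaled to a fixed total per library), which also divides by gene length, so that levels of different genes can be set side by side. Ctnnb1 stood far above the surface proteins, at 1626.6 ± 98.2 TPM in the control group and 1484.0 ± 89.0 TPM in the PLX5622 group (SD, n = 5 each). The other 7 had control means between 63.0 and 270.2 TPM. On PLX5622 they lay between 59.7 and 275 TPM. On control diet Ctnnb1 lay above 99.5% of the tested genes by mean level, Adgra2 above 95.3%, Fzd6 above 94.8% and Lrp6, the lowest member, above 76%.

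The libraries held 26.4M to 61.5M reads (M, mega), recovered from the deposited values, with control male 2 the deepest. Endothelial markers summed to 24030 to 25760 TPM in the control libraries and to 20950 to 24450 TPM on PLX5622, where female 2 was the lowest, and all 12 averaged above 1 TPM in both. Microglial markers summed to 53.7 to 182 TPM in the control group and to 40.1 to 46.7 TPM on PLX5622. On PLX5622, 11 of the 12 microglial genes averaged under 1 TPM, and Cx3cr1, C1qc, Aif1 and Trem2 were listed at 0 in every library. Pericyte markers summed to 345 to 506 TPM in the control group and to 384 to 535 TPM on PLX5622. Smooth muscle markers summed to 249 to 381 TPM and 231 to 327 TPM, astrocyte markers to 126 to 171 TPM and 103 to 203 TPM, and neuron markers to 38.0 to 61.4 TPM and 44.3 to 63.1 TPM, in that order of diets. Oligodendrocyte markers summed to 15.4 to 25.2 TPM and 18.0 to 23.5 TPM, and fibroblast markers to 4.85 to 6.80 TPM and 3.50 to 5.89 TPM. The part of these other cells in the member values was not tested. In such bulk samples, fewer cells of a type and less RNA per cell cannot be told apart.

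RefSeq promoters (build GRCm38.p6) were at hand for 4 of the 8 members: Fzd4, Tspan12, Reck and Ctnnb1. Those of 3 are shown, cut to the 250 bases before the annotated start, because Tspan12 and Ctnnb1 varied together over the libraries while Fzd4 varied apart from both. The Fzd4 promoter is chr7:89404116-89404365 (plus strand), that of Tspan12 is chr6:21852534-21852783 (minus strand), and that of Ctnnb1, the first of 2 entries, is chr9:120933150-120933399 (plus strand). Each is written 5′ to 3′ on the strand of its gene, and capitals mark a GC box (GGGCGG) or a CCAAT box (CCAAT) on either strand.
Fzd4: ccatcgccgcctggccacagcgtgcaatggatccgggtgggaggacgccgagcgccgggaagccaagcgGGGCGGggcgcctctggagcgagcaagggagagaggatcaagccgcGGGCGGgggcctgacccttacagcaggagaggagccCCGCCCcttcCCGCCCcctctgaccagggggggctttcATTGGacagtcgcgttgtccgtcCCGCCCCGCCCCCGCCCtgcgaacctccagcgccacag
Tspan12: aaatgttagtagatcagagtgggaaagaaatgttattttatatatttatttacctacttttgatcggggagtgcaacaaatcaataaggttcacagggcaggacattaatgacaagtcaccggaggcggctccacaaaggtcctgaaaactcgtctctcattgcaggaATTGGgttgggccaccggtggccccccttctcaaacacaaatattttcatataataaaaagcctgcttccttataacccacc
Ctnnb1: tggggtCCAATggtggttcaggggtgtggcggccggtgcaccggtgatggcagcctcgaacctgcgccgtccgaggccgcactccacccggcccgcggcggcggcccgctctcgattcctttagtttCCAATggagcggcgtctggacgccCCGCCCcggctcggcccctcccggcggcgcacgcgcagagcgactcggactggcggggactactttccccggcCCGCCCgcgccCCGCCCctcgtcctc
The Fzd4 window held 7 GC boxes, a pair of which shared 1 base, and 1 CCAAT box. The Ctnnb1 window held 3 GC boxes and 2 CCAAT boxes, and the Tspan12 window held no GC box and 1 CCAAT box. Among 27025 promoter windows of the same length, 32.9% held a GC box and 34.5% a CCAAT box. A TCF/LEF motif (CTTTGAT, in 3.23% of windows) and an ETS motif (CCGGAAG, in 7.05% of windows), searched on both strands, were in none of the 4 member windows. The windows of Ctnnb1, Fzd4, Reck and Tspan12 held 35, 25, 19 and 5 CpG sites, against a median of 6 over all windows. The windows of Tspan12 and Ctnnb1 held 42% and 74.8% of G and C. Any link between these sequences and the levels was not tested.

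Among the Frizzled receptors, Fzd6 and Fzd4 made up most of the family transcript. Together they held 86.2 to 88.7% of the summed Frizzled TPM in the control libraries and 85.1 to 87.6% on PLX5622. Fzd6, a Frizzled known in mice for its role in planar cell polarity, was the more abundant of the pair. The control libraries read 248, 244 and 230 TPM in males and 243 and 265 TPM in females. The PLX5622 libraries read 232, 250 and 214 TPM in males and 223 and 216 TPM in females. The groups overlapped, with 4 of the 5 PLX5622 libraries below the control median of 244 TPM. PLX5622 male 1 and PLX5622 male 2 lay within the control range. The mean was 246 ± 12.7 TPM in the control group and 227 ± 14.6 TPM in the PLX5622 group (SD, n = 5 each). The log2 difference was -0.12 (SE 0.06, 95% interval -0.25 to 0.01) and did not pass the test (limma adjusted p = 0.658).

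Fzd4, the norrin receptor, which Wnt7a and Wnt7b can also use, varied most between libraries. Control males read 166, 155 and 166 TPM and control females 137 and 224 TPM. PLX5622 males read 152, 205 and 115 TPM and PLX5622 females 169 and 220 TPM. Both the lowest library, PLX5622 male 3, and one of the 2 highest, PLX5622 female 2, ate PLX5622, so the groups overlapped over nearly their whole range. The mean was 170 ± 32.7 TPM in the control group and 172 ± 41.8 TPM in the PLX5622 group (SD, n = 5 each). The log2 difference was 0.0037 (SE 0.16, 95% interval -0.34 to 0.35, limma adjusted p = 0.999). The interval reached from a fall to a rise of a size that no other member's interval included, so a moderate change of Fzd4 was not detectable here. Its direction also changed with the males alone (-0.0850) and when single libraries were left out (-0.1260 to 0.1266).

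The co-receptors differed in abundance, with Lrp5 above Lrp6 in every library. For Lrp5, which norrin signalling in the mouse retina depends on, control males read 151, 139 and 156 TPM and control females 137 and 172 TPM. PLX5622 males read 174, 161 and 131 TPM and PLX5622 females 171 and 193 TPM. The highest library was PLX5622 female 2 and the lowest PLX5622 male 3, and the groups overlapped. The mean was 151 ± 14.0 TPM in the control group and 166 ± 22.6 TPM in the PLX5622 group (SD, n = 5 each), a log2 difference of 0.13 (SE 0.09, 95% interval -0.07 to 0.33, limma adjusted p = 0.772). Lrp6, the close homologue of Lrp5, read 64.1, 59.2 and 64.6 TPM in control males and 54.4 and 72.6 TPM in control females. It read 58.2, 65.4 and 49.7 TPM in males given PLX5622 and 62.9 and 62.4 TPM in females given PLX5622. The PLX5622 values lay within or just under the control range, with male 3 the lowest. The mean was 63.0 ± 6.76 TPM in the control group and 59.7 ± 6.20 TPM in the PLX5622 group (SD, n = 5 each), a log2 difference of -0.08 (SE 0.09, 95% interval -0.27 to 0.12, limma adjusted p = 0.907).

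Tspan12, the tetraspanin that boosts norrin signalling through Fzd4, had the difference furthest from 0 among the members. Control males read 95.5, 91.5 and 80.7 TPM and control females 92.1 and 88.3 TPM. PLX5622 males read 83.2, 81.6 and 85.0 TPM and PLX5622 females 81.5 and 70.9 TPM. All PLX5622 libraries lay below 4 of the control libraries, and control male 3 lay inside the PLX5622 range, so the groups overlapped by that library. The mean was 89.6 ± 5.61 TPM in the control group and 80.4 ± 5.52 TPM in the PLX5622 group (SD, n = 5 each). The log2 difference was -0.15 (SE 0.06, 95% interval -0.30 to -0.01), with an unadjusted limma p of 0.034 and an adjusted p of 0.555. The authors' deposited table gave Tspan12 a log2 fold change of -0.14 (SE 0.07, DESeq2 adjusted p = 0.84).

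The Wnt7 co-activators lay near 0 in the comparison of diets. Adgra2, the adhesion receptor, read 266, 256 and 261 TPM in control males and 263 and 305 TPM in control females. It read 284, 285 and 236 TPM in males given PLX5622 and 286 and 284 TPM in females given PLX5622. In each group 4 libraries lay close together and 1 stood apart, control female 2 above and PLX5622 male 3 below the rest. The mean was 270.2 ± 19.9 TPM in the control group and 275 ± 21.5 TPM in the PLX5622 group (SD, n = 5 each), a log2 difference of 0.02 (SE 0.06, 95% interval -0.12 to 0.16, limma adjusted p = 0.973). Reck, the membrane-anchored partner that recognises Wnt7a and Wnt7b, read 156, 138 and 156 TPM in control males and 150.1 and 151 TPM in control females. It read 159, 154 and 146 TPM in males given PLX5622 and 158 and 164 TPM in females given PLX5622. The groups overlapped, and the log2 difference was 0.06 (SE 0.05, 95% interval -0.06 to 0.17, limma adjusted p = 0.857). The mean of Reck was 150.1 ± 7.23 TPM in the control group and 156 ± 6.85 TPM in the PLX5622 group (SD, n = 5 each).

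Ctnnb1 encodes beta-catenin, which carries the signal to the nucleus and also anchors VE-cadherin at junctions. Control males read 1687.7, 1691.3 and 1454.6 TPM and control females 1651.7 and 1647.5 TPM. PLX5622 males read 1511.8, 1474.4 and 1568.6 TPM and PLX5622 females 1528.7 and 1336.8 TPM. As with Tspan12, control male 3 lay inside the PLX5622 range and the other 4 control libraries lay above it. The log2 difference was -0.13 (SE 0.07, 95% interval -0.28 to 0.01), with an unadjusted limma p of 0.069 and an adjusted p of 0.654. The annotation at hand (GENCODE M21, build GRCm38) places 759 of the 5192 exonic bases of Ctnnb1 over exons of Ulk4 on the opposite strand, and these libraries do not mark strand. Ulk4 averaged 0.749 TPM. Adgra2 shared 73 of 5775 exonic bases with Brf2, at 15.3 TPM.

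**Figure D1:**
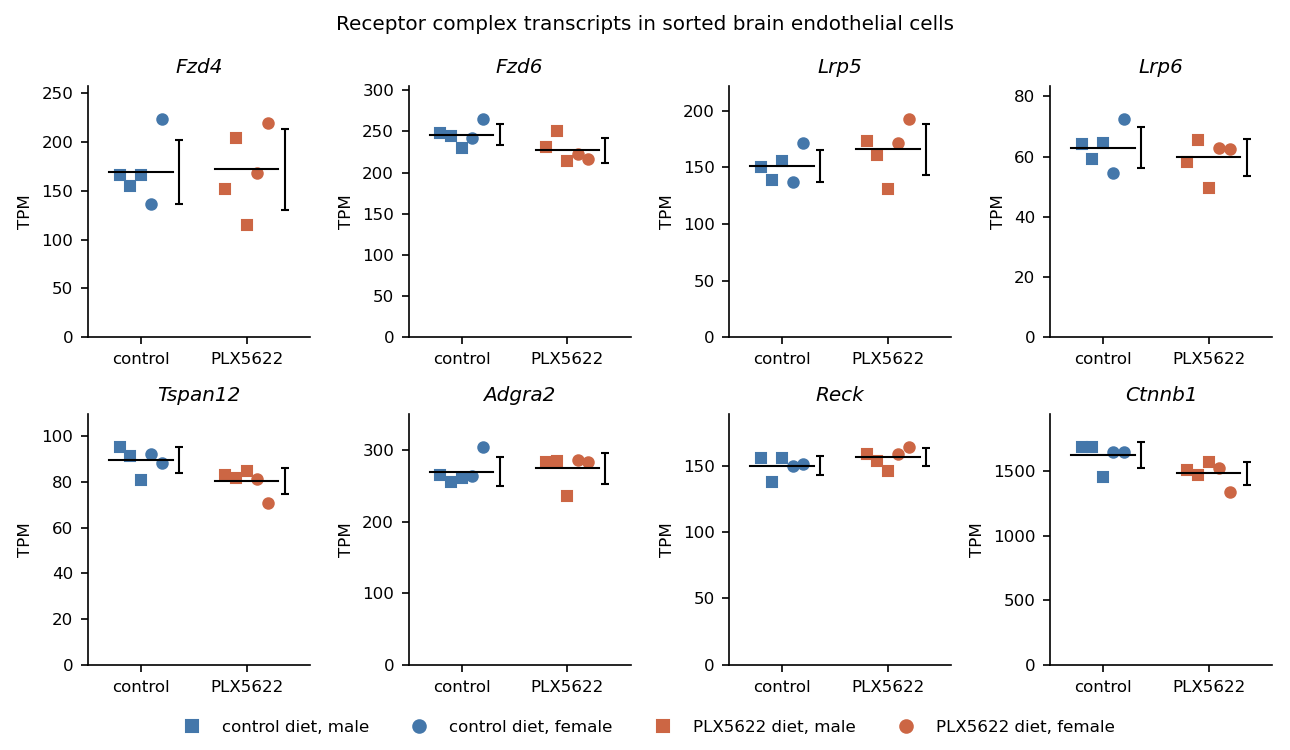
TPM of each of the 8 members (vertical axis of each panel, from 0) in the 5 control and 5 PLX5622 libraries, with squares for males, circles for females, horizontal lines for means and bars for 1 SD either side of the mean. The diets overlap in every panel; Tspan12 and Ctnnb1 overlap only through control male 3, at 80.7 and 1454.6 TPM.

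In all, 0 of the 8 members were called for diet at an adjusted p under 0.05, against 17 of the 12751 tested genes (0.133%). At an unadjusted limma p under 0.05 there was 1 member, Tspan12, where 8.31% of tested genes reached that level. No member had diets that did not overlap, which 1.8% of tested genes had. Lrp5, Reck, Adgra2 and Fzd4 lay above 0 and the other 4 below, and 55.7% of tested genes lay below 0. The authors' deposited table called none of the members either, with a lowest DESeq2 adjusted p of 0.84 where it called 0.596% of 19474 genes. At an unadjusted p under 0.05 that table held 0 of the 8 members and 6.33% of its genes. With an SE of 0.05 to 0.09 on the log2 scale for the members other than Fzd4, their intervals bounded the change between -0.30 and 0.33.

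**Figure D2:**
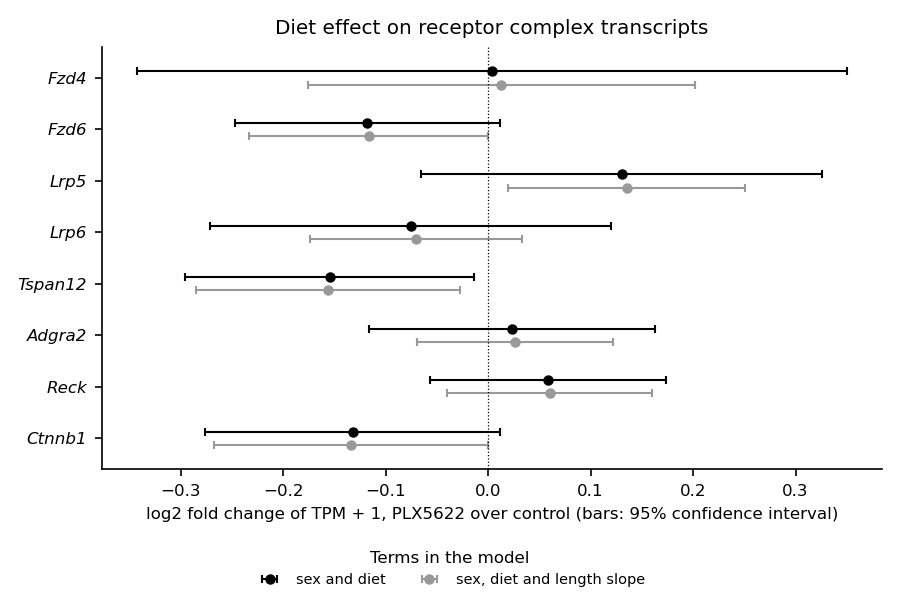
Log2 fold change of TPM + 1 between the diets (horizontal axis, PLX5622 over control) for each member, with 95% confidence intervals, from the model with sex and diet (black) and with a length slope per library added (grey). In black the interval of Tspan12 lies below 0 (-0.30 to -0.01) and the others include 0; none passes the adjustment over all tested genes.

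By mean level the members stood in the same order on both diets. From the top it ran Ctnnb1, Adgra2, Fzd6, Fzd4, Lrp5, Reck, Tspan12 and Lrp6. Neighbours whose ranges overlapped on control diet were Adgra2 and Fzd6, Fzd4 and Lrp5, and Lrp5 and Reck. Within a library, though, Adgra2 lay above Fzd6 in 5 of 5 libraries of each diet. Fzd4 lay above Lrp5 in 4 of 5 control libraries and in 2 of 5 on PLX5622, so that this pair had no fixed order. On PLX5622 the ranges of these 3 pairs overlapped again, those of Fzd6 and Fzd4 overlapped as well, and Fzd6 was the higher in 4 of 5 libraries.

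Of 4 ratios between partners within a library, that of the co-receptors was the 1 with an unadjusted p under 0.05, and it did not pass the adjustment over the 4. The ratio of Lrp6 to Lrp5 was 0.425, 0.426 and 0.414 in control males and 0.397 and 0.423 in control females. It was 0.335, 0.406 and 0.379 in males and 0.368 and 0.323 in females given PLX5622. Of the PLX5622 libraries, 4 lay below every control library, and PLX5622 male 2 lay between the 2 lowest controls. The mean was 0.417 ± 0.0122 in the control group and 0.362 ± 0.0332 in the PLX5622 group (SD, n = 5 each), a mean log2 difference of -0.21. A two-sided exact permutation test over every split of 5 against 5 libraries gave p = 0.0159, where the smallest it can give is 0.00794. Adjusted over the 4 ratios tested, the permutation p was 0.0635.

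The other 3 ratios overlapped widely. The ratio of Fzd6 to Fzd4 averaged 1.48 ± 0.219 in the control group and 1.38 ± 0.329 in the PLX5622 group (SD, n = 5 each), with an exact permutation p of 0.524. That of Tspan12 to Fzd4 averaged 0.544 ± 0.107 and 0.498 ± 0.159 (SD, n = 5 each; exact permutation p = 0.548), and that of Reck to Adgra2 0.557 ± 0.0409 and 0.571 ± 0.0301 (SD, n = 5 each; exact permutation p = 0.579). Adjusted over the 4 ratios, the p of each of these 3 was 0.579. Over the PLX5622 libraries the ratio of Tspan12 to Fzd4 ran from 0.323 to 0.738 and that of Reck to Adgra2 from 0.54 to 0.618.

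**Figure D3:**
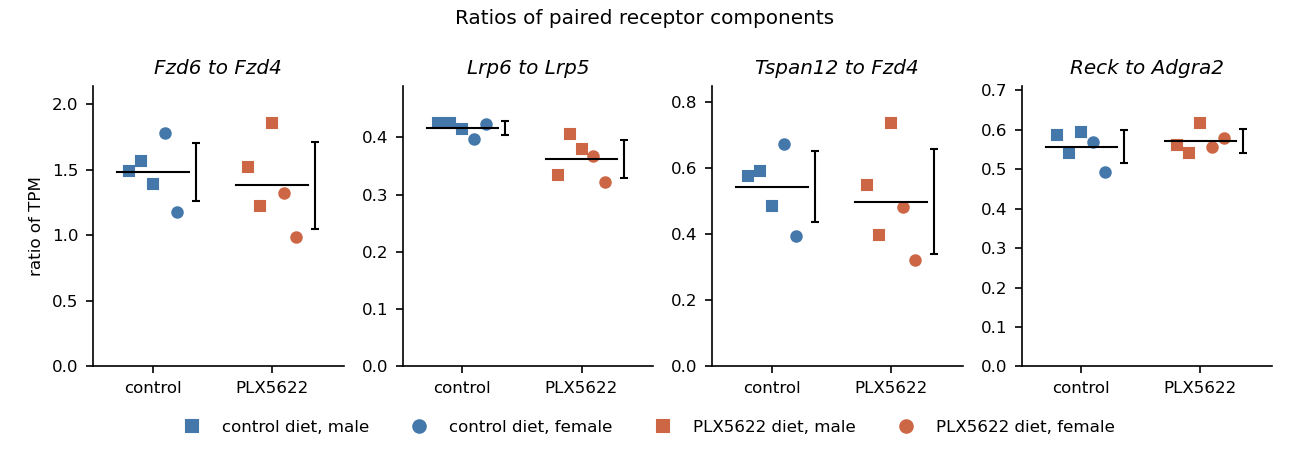
Ratio of TPM between paired members in each library (vertical axis of each panel, from 0), by diet and sex, with means as lines and bars of 1 SD either side of the mean. For Lrp6 to Lrp5 the control libraries lie between 0.397 and 0.426 and 4 of the 5 PLX5622 libraries lie lower; the other 3 ratios overlap.

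The members did not share 1 pattern of variation between libraries beyond diet and sex. In the model with separate terms for sex and diet, the residual SD on the log2 scale was 0.316 for Fzd4, higher than for 88.5% of tested genes. It was 0.164 for Lrp5 and 0.16 for Lrp6, near the middle of all genes, and 0.067 for Reck, with only 4.63% of genes lower. The lowest count of any member in any library was 1743 reads, for Tspan12, which is a counting error of 2.4%; for Fzd4 the error at its lowest count was 1.47%.

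In residuals from the means of the 4 groups of diet and sex, Fzd4, Lrp5, Lrp6 and Adgra2 varied together, with Pearson r from 0.82 (Fzd4 and Lrp5) to 0.92 (Lrp6 and Adgra2) over 10 libraries. Fzd6 varied with Lrp6 (0.81) and Adgra2 (0.82) and less with Lrp5 (0.55). Tspan12 and Ctnnb1 made up another pair, with r = 0.96, and were at -0.45 and -0.43 with Fzd4. These correlations describe the 10 libraries, which share the scaling of TPM, and carry no test. With 2 females per diet, the female residuals mirror each other, so fewer than 10 values are free to vary. The genes most like Fzd4 in this measure were Mrtfb (0.990) and Efr3b (0.988), and those most like Lrp6 were Myh10 (0.994) and Ssh2 (0.993). For Adgra2 they were Prrc2b (0.995) and Tfdp2 (0.994), and for Lrp5 a row of the microRNA gene Mir3113 (0.987) and Fyco1 (0.986). The gene most like Fzd6 was Tmem164 (0.978), and those most like Reck were Dcaf6 (0.976) and Yod1 (0.975). For Tspan12 they were Nmrk1 (0.989) and Glrx2 (0.980), and for Ctnnb1 Rpe (0.988) and Sfxn1 (0.986).

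A property of whole libraries moved with the first set of members. For each library a slope was fitted, across 12655 genes, of the centred log2 level on gene length, so that a positive slope means that longer genes read higher in that library. This was added after seeing the data. The slope per doubling of length was 0.0570 in control female 2 and 0.0236 in PLX5622 female 2, the libraries in which Fzd4 was highest. It was -0.0492 in PLX5622 male 3 and -0.0345 in control female 1, the libraries in which Fzd4 was lowest. Over the 10 libraries it was negative in 3 of 5 on control diet and in 1 of 5 on PLX5622. Lrp6, Adgra2 and Lrp5 were the longest members, at 3.12, 1.84 and 1.72 times the median tested gene. Reck was at 1.48, Fzd6 at 1.38, Fzd4 at 1.23, Ctnnb1 at 1.21 and Tspan12, the shortest, at 0.837. Reck and Fzd6 were thus longer than Fzd4.

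With the slope in the model, the residual SD fell from 0.316 to 0.164 for Fzd4, from 0.160 to 0.054 for Lrp6, from 0.164 to 0.082 for Lrp5 and from 0.101 to 0.054 for Adgra2. For Fzd6, Tspan12, Reck and Ctnnb1 it moved by less than 0.01. The diet differences stayed close to those without it, at 0.01 for Fzd4 (95% interval -0.18 to 0.20), 0.14 for Lrp5 (0.02 to 0.25) and -0.16 for Tspan12 (-0.29 to -0.03). Again 0 of 8 members were called, against 0.157% of tested genes, with limma adjusted p of 0.375 for Lrp5 and 0.351 for Tspan12. At an unadjusted p under 0.05 there were 2 members, Lrp5 and Tspan12, where 10.9% of tested genes reached it. What sets the slope was not tested.

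**Figure D4:**
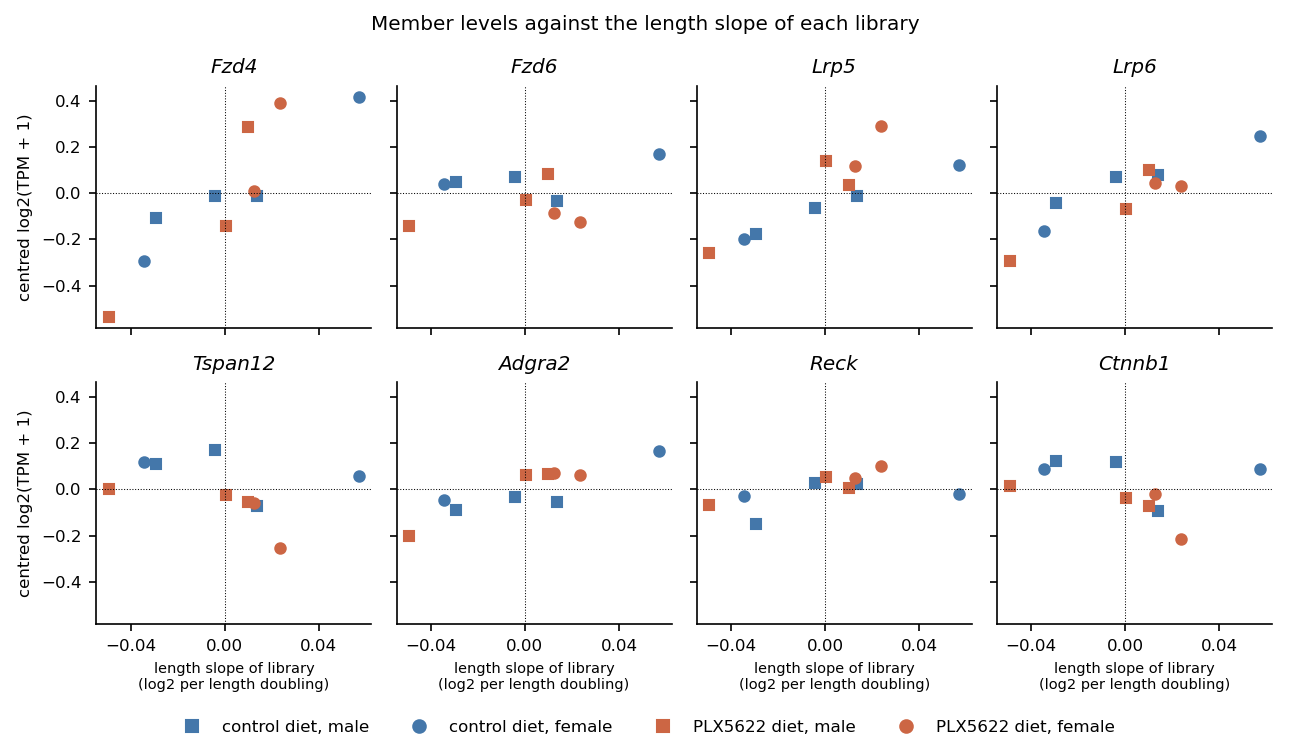
Log2(TPM + 1) of each member, centred on its mean over the 10 libraries (vertical axis), against the slope of the library on gene length (horizontal axis, log2 per doubling of length), with colour for diet and shape for sex. Fzd4 runs from -0.536 in PLX5622 male 3, with a slope of -0.0492, to 0.417 in control female 2, with a slope of 0.0570. In these libraries Reck is at -0.066 and -0.02 and Ctnnb1 at 0.016 and 0.087. Reck spans less than Fzd4, from -0.148 in control male 2 to 0.103 in PLX5622 female 2.

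Sex made no called difference for any member, where 8 of 12751 tested genes (0.0627%) were called. At an unadjusted limma p under 0.05 there were again 0 members, where 5.8% of tested genes reached it. Fzd4 was furthest from 0, with females higher than males by 0.22 on the log2 scale (SE 0.16, limma adjusted p = 0.877), and Fzd6 was at -0.0001 (SE 0.06, limma adjusted p of 1). The difference in diet effect between the sexes was tested in 1 model for all genes and was called for 0 of the 8 members and for 0% of tested genes, while 2.45% had an unadjusted limma p under 0.05. Among the members no unadjusted p was under 0.05, and the lowest was 0.241, for Fzd6. For Fzd4 the interval of that difference ran from -0.51 to 0.95.

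Around the receptor, 110 pathway genes were set out in 8 lists, of which 70 were tested. Axin2, Lef1, Tcf7 and Apcdd1 stood in more than 1 list, so the lists are not separate, but each gene counts once in these totals. Called by limma were 0 of the 70, where 0.133% of tested genes were called. At an unadjusted limma p under 0.05 there were 8 of the 70, where 8.31% of tested genes reached it. The authors' deposited table held 107 of the 110 and called 1, Nkd1 (log2 fold change -0.30, SE 0.07, DESeq2 adjusted p = 0.00357). Over all its genes that table called 0.596%. At an unadjusted DESeq2 p under 0.05 it held 10 of the 107, and 6.33% of all its genes. Nkd1, an inhibitor of Wnt signalling that the pathway itself turns on, averaged 312 ± 23.2 TPM in the control group and 249 ± 17.8 TPM in the PLX5622 group (SD, n = 5 each). Every control library, at 285 to 338 TPM, lay above every PLX5622 library, at 231 to 272 TPM. Such a lack of overlap, in either direction, was found in 1.8% of tested genes. The log2 difference of Nkd1, -0.32 (SE 0.07), had a limma adjusted p of 0.215.

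The ligands themselves were barely present in sorted endothelium. Wnt7a averaged 0.954 ± 0.170 TPM in the control group and 0.890 ± 0.341 TPM on PLX5622, and Wnt7b 0.732 ± 0.261 and 0.802 ± 0.252 TPM (SD, n = 5 each). Over all libraries of a diet this was 193 and 140 reads for Wnt7a and 218 and 176 reads for Wnt7b. Ndp averaged 0.681 ± 0.280 and 0.393 ± 0.232 TPM (SD, n = 5 each), from 80 and 38 reads. None of these 3 passed the filter, so none was tested. Nor did the R-spondin Rspo1 pass, at 0.523 ± 0.269 and 0.0954 ± 0.119 TPM (SD, n = 5 each), from 63 and 9 reads. The authors' deposited table gave Rspo1 an unadjusted DESeq2 p of 0.00638 and an adjusted p of 0.348. Of 24 ligand genes, R-spondins included, 5 were tested, with a median log2 difference of -0.028 that ran from -0.1029 to 0.0834 with single libraries left out. The most abundant were the other Wnts Wnt5a, at 8.97 ± 1.12 and 8.51 ± 2.73 TPM, and Wnt5b, at 6.07 ± 0.935 and 7.68 ± 2.89 TPM (SD, n = 5 each).

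Of the 13 other Frizzled receptors and Wnt co-receptors 8 were tested, with a median of 0.028, against -0.016 for all tested genes. With single libraries left out the list median ran from -0.0229 to 0.0730. Ryk, a kinase-like Wnt receptor, averaged 48.6 ± 2.05 and 45.8 ± 2.61 TPM, and Fzd8 22.6 ± 1.52 and 23.5 ± 1.85 TPM (SD, n = 5 each). Fzd5 and Fzd7, at 11.8 and 4.85 TPM in the control group and 14.1 and 6.26 TPM on PLX5622, had unadjusted limma p of 0.0328 and 0.0334. Their log2 differences were 0.24 (SE 0.10) and 0.32 (SE 0.13), with adjusted p of 0.546 and 0.551. Of 6 genes of receptor turnover 3 were tested. Mesd, a chaperone that Lrp5 and Lrp6 need to fold, averaged 36.1 ± 2.80 and 32.1 ± 1.84 TPM (SD, n = 5 each). Its log2 difference was -0.16, with an unadjusted limma p of 0.0411 and an adjusted p of 0.577. Znrf3, a ligase that removes Frizzled receptors from the surface, was at -0.07 (limma adjusted p = 0.925).

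Of 16 antagonists 5 were tested, and all 5 of these lay below 0, where 55.7% of tested genes did, but none was called and none had an unadjusted p under 0.05. Their median was -0.143, which was -0.0564 with a pseudocount of 5 and -0.0095 without the filter, over more of the 16. The most abundant were Apcdd1, a membrane protein that blocks Wnt signals, at 1176.4 ± 61.3 and 1138.0 ± 149.8 TPM, and Notum, which strips the lipid from Wnts, at 228 ± 18.9 and 205 ± 23.8 TPM (SD, n = 5 each). Inside the cell, 17 of 18 genes of the destruction complex and its transducers were tested, with 8 above and 9 below 0. Axin2, a scaffold of that complex and a common target of the pathway, averaged 131 ± 9.93 and 114 ± 16.1 TPM (SD, n = 5 each). Its log2 difference was -0.20, with an unadjusted limma p of 0.0403 and an adjusted p of 0.576. The kinase gene Csnk1d and the phosphatase gene Ppp2ca, the most abundant, were at 0.05 and -0.08 (limma adjusted p = 0.924 and 0.755).

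Of 15 nuclear partners of beta-catenin 14 were tested, with a median of -0.051. Lef1 and Tcf7, the DNA-binding partners, were at -0.03 and -0.10 (limma adjusted p = 0.951 and 0.71), from 269 and 209 TPM on control diet. The 5 cadherin partners all lay below 0, where 55.7% of tested genes did, with none called and a median of -0.078. Cdh5, which encodes VE-cadherin, was at -0.08 and Ctnna1, which encodes alpha-catenin, at -0.04 (limma adjusted p = 0.785 and 0.927).

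The 17 endothelial Wnt targets were all tested, and none was called. The list was not split by whether the pathway raises or lowers a gene. Below 0 lay 14 of the 17, where 55.7% of tested genes did, and the median was -0.087. The 14 included Plvap, at -0.0055 (SE 1.05). An unadjusted limma p under 0.05 was found for 5 of the 17, where 8.31% of tested genes had it. Besides Nkd1 and Axin2 these were Foxf2, a forkhead factor of brain vessels, at -0.19 (SE 0.06), Tnfrsf19, a receptor of the tumour necrosis factor family, at -0.17 (SE 0.08), and Fgfbp1, a carrier of fibroblast growth factors, at 0.41 (SE 0.14). Their limma adjusted p were 0.382, 0.578 and 0.418. Slc2a1, the glucose transporter of the barrier, and Cldn5, its main tight junction claudin, were the most abundant targets, at 0.15 and -0.09 (limma adjusted p = 0.696 and 0.868). Of Slc2a1 the libraries held 4565.1 to 5493.5 TPM in the control group and 5026.4 to 6279.4 TPM on PLX5622, which overlapped.

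**Figure D5:**
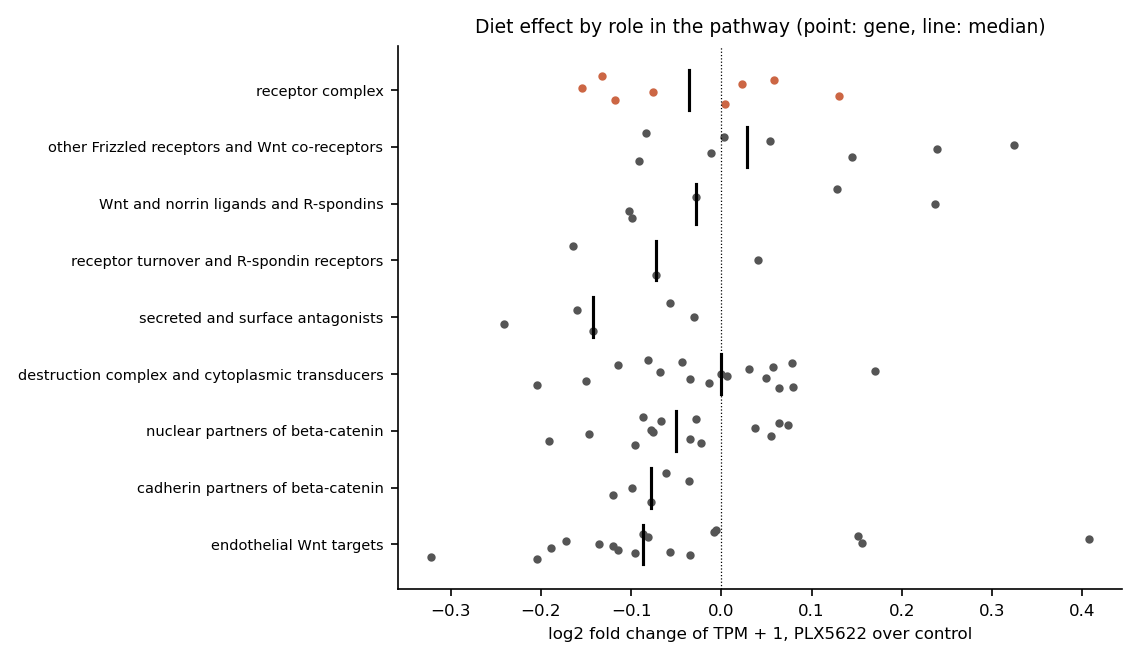
Log2 fold change of TPM + 1 between the diets (horizontal axis) for each tested gene, by role in the pathway, with the 8 receptor complex members in orange, other genes in grey and a line at the median of each list. The members spread from -0.155 to 0.130; list medians lie between -0.143 for the antagonists (-0.0095 without the filter) and 0.028 for the other receptors (-0.0229 to 0.0730 with single libraries left out), and none of these genes passes the adjusted test.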

How the data were processed

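Polyadenylated RNA of sorted CD31+ brain cells was sequenced from 10 mice in non-stranded libraries, per the labels' protocols. Per the submitters' processing notes, the authors used STAR 2.7.10a with genome mm39, featureCounts (Subread 2.0.1) and DESeq2 1.32.0 (R 4.1.0). The authors deposited TPM for 26264 genes, and a DESeq2 table of 19474 genes with log2 fold changes, p-values, a test statistic and a mean normalized count. The deposited test statistic and mean normalized count were entered as scores, a unit with no fixed range. The sources used here do not give the formula of that model. Titles give diet, sex and a biological replicate number.

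The main test was limma 3.58.1 (R 4.3.3) on log2(TPM + 1), which understates changes of low genes, with trended variance and terms for sex and diet. The 12751 genes tested reached 1 TPM in 5 or more of the 10 libraries. P-values were two-sided, adjusted by Benjamini-Hochberg over these genes, with a threshold of 0.05. Sex and its interaction with diet were tested likewise, and ratios by exact permutation of libraries. Whole reads were recovered from TPM and the authors' mean counts (100.0% whole within 0.05 reads). They give the depth and the relative gene lengths, and were tested with voom as an alternative.

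Members and lists were chosen with earlier results of these data known. Named are the members, and of each list any called gene, any with an unadjusted p under 0.05 and the 2 most abundant. For each member, the 2 tested genes with the highest residual correlation are named too, passing over predicted genes; 1 gene that this rule takes is not reported here. Wnt7a, Wnt7b and Ndp, as the ligands, fall outside this rule and were named after their values were seen. Rspo1 and Plvap fall outside it too and were named likewise. Alternatives changed the pseudocount (0.1, 5), filter, scaling, variance model, weights, covariates, pairing, samples and test, or dropped single libraries. The length slope was added after seeing the data. The limma test for diet was checked on simulated data. Promoters come from RefSeq (GRCm38.p6), cut to the 250 bases before the start. Tools were Python 3.11.15, numpy 2.4.6, pandas 2.3.3 and matplotlib 3.10.9.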

Additional observations from a re-analysis of the deposited data

Results flagged for a closer look

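Among 24 sets of 5 libraries of 1 diet examined for a library far from the others, counting members and ratios, 4 held one, and chance gives about 1 in 20. The sets share libraries and the ratios share members, so the sets are not independent and no excess over that rate can be read from them. Tspan12 read 70.9 TPM in PLX5622 female 2 and 81.5 to 85.0 TPM in the other PLX5622 libraries. Adgra2 read 305 TPM in control female 2, where the other control libraries held 256 to 266 TPM. Adgra2 also read 236 TPM in PLX5622 male 3, where the others on that diet held 284 to 286 TPM. Ctnnb1 read 1454.6 TPM in control male 3 and 1647.5 to 1691.3 TPM in the other control libraries. Without control male 3, the lowest limma adjusted p among the members was 0.307, for the diet effect on Tspan12. The log2 difference of Tspan12 was then -0.20. Without PLX5622 female 2, its own outlying library, it was -0.11, against -0.15 with all libraries.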

How the results depend on the processing

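No member was called for diet under any alternative, and the lowest limma adjusted p was 0.3, with array weights. The unadjusted limma p of Tspan12 was under 0.05 with the other pseudocounts, array weights, no sex covariate and the replicate block. It was not with median-of-ratios scaling, quantile normalization, voom or variance without a trend, nor in some fits without a single library. The count of genes called for diet was 17, and 5 to 16 when single libraries were left out (control male 2 giving 5, PLX5622 male 2 giving 6, control male 1 giving 7, and control female 2, PLX5622 male 1 and PLX5622 female 1 giving 9 each). It was 0 in females only (502 at an unadjusted p under 0.05), 8 in males only, 7 without a filter on low values, 7 with variance without a trend, 11 with the replicate block and 116 in the authors' deposited table (DESeq2). With the replicate block the ratio of Lrp6 to Lrp5 had an exact permutation p of 0.0625, the smallest that pairing allows and above the threshold (its difference, -0.208, is the same by construction). Single libraries left out moved that difference between -0.250 and -0.168 (exact p 0.00794 to 0.0317). The deviations of same-numbered libraries correlated at 0.031 to 0.190, with 1 of 5 pairs under 0.1. Yet 8 of 10 libraries correlated best with their own number. Both female pairs gave 0.157, as deviations within a group of 2 mirror each other, so these counts are not independent. Whether the numbers pair the mice cannot be told from these values, and the main test left pairing out.

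Among members and ratios, the directions that turned were those of Fzd4, Adgra2, a ratio and 2 sex differences, none of them called. Fzd4 was at -0.0850 in males only, and -0.1260 to 0.1266 with single libraries left out, which also moved Adgra2 from -0.0064 to 0.0699 and the ratio of Reck to Adgra2 from -0.007 to 0.060. The sex difference of Fzd6 ran from -0.0423 to 0.0321 and that of Ctnnb1 from -0.0628 to 0.0271. The list medians near 0 turned as well with single libraries left out: ligands -0.1029 to 0.0834, other receptors -0.0229 to 0.0730 and destruction complex -0.0373 to 0.0149. The SE of Fzd4 was 0.16, and 0.09 with the length slope in the model.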
